A study of Mus musculus with 16 samples.

Results

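Expression was compared between T cell acute lymphoblastic leukaemias (T-ALL) that arose with ICN and without it in mice lacking p53. ICN is the intracellular part of Notch, which acts as an always-active receptor. The comparison held 8 of the 16 RNA-seq libraries of the series, 1 library per mouse, and its members were taken from the labels alone. All 8 mice were C57Bl6 with a p53 ko genotype. The ICN side had 4 mice, 2 with Miz1 wt and 2 expressing Miz1 deltaPOZ, and the side without ICN had 4 mice split the same way. Miz1, the product of Zbtb17, is a transcription factor with zinc fingers, and deltaPOZ is its form without the POZ domain. Titles of the deltaPOZ mice used here carry the suffix Vav, which the labels do not explain. The 2 groups with the suffix Lck and all p53 wt mice, all with ICN, were left out of the test between the sides. Their 8 libraries enter the ratio measure described below, and values said to come from other ICN libraries or from all 16. The labels do not give age, sex, organ of origin, the way ICN was delivered or the share of leukaemia cells in a sample. Where any of these differed between the sides, it cannot be told apart from ICN. The p53-ko mice without ICN are taken to have developed leukaemia on their own because no inducer is named. The labels name separate mice, and the tests therefore weigh differences against the variation among mice.

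Notch receptors are cleaved when they meet a ligand on a neighbouring cell, and the released intracellular part enters the nucleus, joins the DNA-binding protein RBPJ and switches on target genes. In the thymus this signal commits progenitors to the T lineage and fades after cells have rearranged the beta chain of their receptor. p53 halts or kills cells with damaged DNA, and mice without it develop thymic lymphomas whose genomes are unstable. A piece of diseased tissue also holds red cell precursors, granulocytes, B cells and stroma, and their RNA enters the same count table. In such bulk samples, fewer cells of a type and less RNA per cell cannot be told apart.

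The 8 libraries held 36463524 to 68523196 gene counts. Levels below are CPM (library-scaled counts, TMM), always listed as Miz1 wt 1 and 2, then deltaPOZ 1 and 2. Differences are log2 fold differences, ICN minus no ICN, from edgeR's quasi-likelihood F test with Miz1 status as a block (4 mice against 4). Each has a Benjamini-Hochberg adjusted p and a standard error (SE). The SE was derived from the test, as the absolute log2 difference divided by the square root of F. On the first principal component, with 64.9% of the variance of the 2000 most variable genes, the libraries without ICN lay at -100.9 to -74.3 and those with ICN at 80.7 to 91.7. Trp53 stayed between 7.45 and 30.05 CPM in all 8 libraries. Xist, the RNA of the inactive X chromosome, and the Y-linked Ddx3y were both present in all 4 ICN libraries (Xist at 15.5 to 729 CPM), and whether these hold RNA of more than 1 mouse was not tested. ICN Miz1 wt 1 had the largest share of alignments that were not unique, 63.74% against 46.51% to 56.21% in the other 7. Of 15860 genes tested, 1395 were higher with ICN (8.8%) and 973 lower (6.13%), and 3526 (22.2%) had no overlap between the 4 and 4 libraries. Among called genes, 1307 of the higher and 819 of the lower had no overlap. A lack of overlap described below therefore adds little to a call. All 2368 called genes had the same sign within Miz1 wt and within deltaPOZ. They were chosen by the pooled test on these same 8 libraries, so a shared sign is largely given by that choice. No gene was called for a side difference varying with Miz1 status (edgeR, 0 genes, 0%, with 620 at an unadjusted p under 0.05). However, DESeq2 called 82 and edgeR without a low-count filter 369. Within Miz1 wt, 2 against 2 with the spread pooled over all 8, edgeR called 578 genes (3.64%), and within deltaPOZ 397 (2.5%). Whichever of the 8 libraries was left out, 741 of the higher genes (53.1%) and 315 of the lower genes (32.4%) were called again, and the genes described below are mainly of this kind.

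Levels of T-lineage RNA overlapped between the sides. The mean log2 CPM of 23 T cell identity genes was 6.92 to 7.6 without ICN and 7.13 to 7.34 with ICN. Of these 23 genes, 3 were higher and 6 lower with ICN, and their median difference was -0.20, against 0 over all genes tested. The shares over all genes tested, 8.8% higher and 6.13% lower, are the background for this and every list count below. Cd3e, a chain of the T cell receptor complex, was at 130.2, 116, 100.2 and 175 CPM without ICN and at 96.5, 114, 91.6 and 68.5 CPM with ICN (log2 -0.50, SE 0.24, adjusted p = 0.196). Cd8a, a coreceptor of double-positive thymocytes and cytotoxic T cells, was at 1209, 514, 587 and 629.8 CPM without ICN and at 653, 775, 1025 and 829 CPM with ICN (log2 0.17, SE 0.31, adjusted p = 0.761). Defining T cell markers were thus present in every library.

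**Figure D1:**
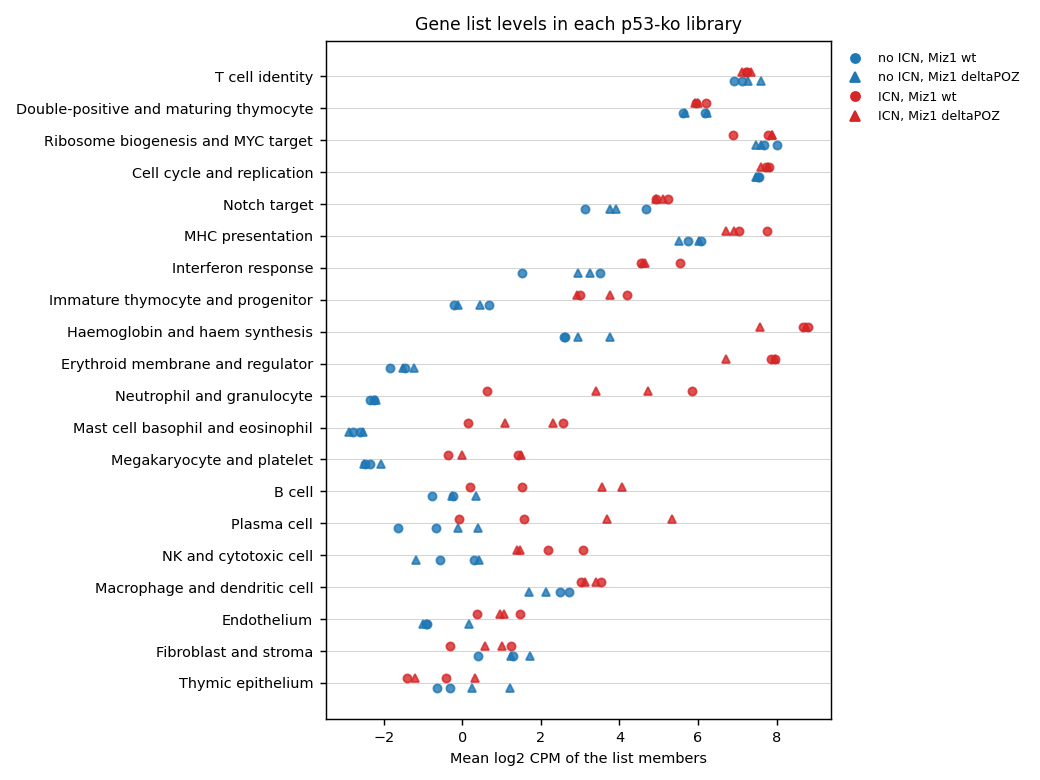
Mean log2 CPM of the members of 20 gene lists in each of the 8 p53-ko libraries (blue, no ICN; red, ICN; circles, Miz1 wt; triangles, deltaPOZ). T cell identity genes overlap at about 7 on both sides, while the erythroid membrane list lies between -1.85 and -1.23 without ICN and between 6.72 and 7.97 with ICN.

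The largest differences belonged to genes of red cell precursors. All 16 genes of haemoglobin and haem synthesis were higher with ICN (median log2 4.19), as were 24 of 26 genes of the red cell membrane and its regulators (median 11.92), and none was lower. Together these lists took 0.11% to 0.2% of gene counts without ICN and 3.08%, 2.94%, 1.22% and 3% with ICN. Slc4a1, the anion exchanger of the red cell membrane, was at 0, 0.0856, 0.186 and 0.102 CPM without ICN and at 4398, 3028, 1173 and 3339.8 CPM with ICN (log2 14.88, SE 0.86, adjusted p = 6.06e-05). Car2, the carbonic anhydrase of red cells, was at 0.0699 to 0.391 CPM without ICN and at 1366, 1709, 651 and 1515 CPM with ICN (log2 12.29, SE 0.64, adjusted p = 3.62e-05). In both genes the deltaPOZ 1 library was the lowest of the 4 with ICN. The erythroid transcription factor Klf1 was at 0.185 to 0.51 CPM without ICN and at 84.9, 178, 70.6 and 137 CPM with ICN (log2 8.33, SE 0.52, adjusted p = 8.62e-05). Pklr, the red cell form of pyruvate kinase, had 0 counts in all 4 libraries without ICN and 15.98 to 39.2 CPM with ICN, which is at least 2040-fold higher against a floor of 3 counts over the group. Counts of the globin genes are uncertain because reads that fit more than 1 copy were not assigned.

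Alas2, which makes the first enzyme of haem synthesis in red cells, was at 0.0751, 0.214, 0.652 and 1.94 CPM without ICN and at 987, 1041, 401 and 1045 CPM with ICN (log2 10.61, SE 1.03, adjusted p = 0.000691). The 250 bases before its start, on the plus strand of GRCm38.p6 chrX:150547167-150547416 (RefSeq promoter table), are shown as an example of an erythroid promoter, with the letters of the GATA motif AGATAA or its reverse complement in capitals.
Alas2: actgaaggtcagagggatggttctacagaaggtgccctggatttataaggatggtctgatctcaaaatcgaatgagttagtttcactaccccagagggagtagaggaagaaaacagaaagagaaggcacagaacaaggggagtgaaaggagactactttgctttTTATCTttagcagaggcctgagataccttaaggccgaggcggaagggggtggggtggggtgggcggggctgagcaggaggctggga
GATA factors, among them Gata1 in the erythroid lineage, bind this motif. On either strand it occurred in 8 of the 31 tested erythroid list genes with an entry (25.8%). The share was 6.1% of the 11088 promoters of genes tested and 10.3% of all 27025 promoters of that length. A match describes letters and does not show binding.

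Other blood cells differed too, and less evenly. Of 22 neutrophil and granulocyte genes, 20 were higher (median log2 8.33, or 8.02 with genes at 0 counts set to their bound), and of 16 genes of mast cells, basophils and eosinophils, 12 were higher (median 5.73, or 5.27). S100a9, a calcium-binding protein of neutrophils, was at 0.0856 to 0.596 CPM without ICN and at 1344, 22.5, 219 and 501 CPM with ICN (log2 10.33, SE 1.47, adjusted p = 0.00388). Elane, neutrophil elastase, had 2 counts in all without ICN and 20.2, 0.182, 7.18 and 29.4 CPM with ICN, a pooled ratio of 1410 (95% counting interval 391 to 11700). The Miz1 wt 2 library thus held far less granulocyte RNA than the other 3 with ICN, while its erythroid level was among the highest. B cell genes followed another order. Of 19, 10 were higher (median log2 3.52), and Igkc, the kappa light chain, was at 0.414 to 5.87 CPM without ICN and at 6.44, 3.61, 61.0 and 248 CPM with ICN (log2 4.01, SE 0.97, adjusted p = 0.0279). The sides overlapped for Igkc, and its adjusted p rose above 0.05 without any 1 of 3 libraries, over log2 differences of 3.16 to 4.75.

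Of 9 plasma cell genes, 5 were higher and 1 lower (median log2 3.25). Of 13 megakaryocyte and platelet genes 9 were higher (median 4.35), of 15 NK and cytotoxic genes 6 (median 2.60), and of 29 macrophage and dendritic cell genes 7 (median log2 1.19). Csf1r, the growth factor receptor of macrophages, was at 14.2, 16.8, 10.2 and 11.5 CPM without ICN and at 54.1, 69.5, 37.8 and 40.9 CPM with ICN (log2 1.93, SE 0.20, adjusted p = 0.00104). Vcam1, an adhesion molecule of spleen macrophages and endothelium that binds the integrin alpha 4 chain, was at 17.4 to 29.4 CPM without ICN and at 74.5 to 158 CPM with ICN (log2 2.22, SE 0.27, adjusted p = 0.00191). For endothelium the count was 4 higher and 1 lower of 12, for fibroblasts and stroma 1 higher and 5 lower of 18 (median -0.37), and for thymic epithelium 1 higher and 1 lower of 7. Hepatocyte and acinar genes gave 0 calls of 3.

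Because red cell RNA accompanied ICN in all 4 mice, a fit with the erythroid score as a covariate left almost nothing of the group difference to test. Only 1.12% of the variance of that score lay outside the design, and the fit called 0 genes (264 at an unadjusted p under 0.05), so it could not part leukaemia genes from admixed ones. Its estimates are extrapolations, and they turned the sign of 27 of the genes named in the text, among them Cish, Pim1, H2-K1, Rsad2, Ccnd2, Ly6d and Sox4, described below. A measure within the ICN side was used in its place. For each gene, the standard deviation of its log2 ratio to a blood cell score over the 12 ICN libraries of the series was divided by the gene's own standard deviation. These 12 hold p53 wt and Lck mice besides the 4 of the comparison, so differences between genotypes enter the measure. A value near 0 means that the ratio of gene and score hardly varies from mouse to mouse, and a value of 1 or more means that taking the ratio removes no variation. With a limit of 0.6, all 16 haemoglobin genes, 22 of 26 erythroid membrane genes and 20 of 22 granulocyte genes fell under it for their own score, and 0 of 23 T cell identity genes followed any score (their erythroid measures ran from 0.91 to 3.47). Each score is the mean of those same lists, less the gene itself, and the limit was chosen with these values known, so the list counts describe the measure and do not test it.

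A gene under the limit is said below to follow the score, although up to 0.6 of its own spread may remain. In this sense 232 of the 1395 higher genes (16.6%) followed the erythroid score, against 1.7% of all genes tested, and 194 of the 232 were on no blood cell list. Another 64 followed the granulocyte score and 26 the B cell score, which leaves 1073 that followed none. No score was made for megakaryocytes, mast cells, NK cells or macrophages. Of the 1073, 45 were on a list of admixed cells, among them all 9 higher megakaryocyte and platelet genes and all 6 higher NK and cytotoxic genes. All 7 higher macrophage and dendritic cell genes followed none as well. With a limit of 0.5 the counts were 179, 53 and 14, and with 0.7 they were 287, 73 and 31. Among the 973 lower genes, 0 followed the erythroid score, 1 the granulocyte score and 1 the B cell score. Just inside the limit lay Reep6 and Tifa (0.599 each), and just outside it Selenbp1 (0.605) and Gvin1 (0.607). Following none does not make a gene free of red cell RNA or of RNA from cells without a score. Slc14a1 (0.704), Tmem14c (1.02) and Mpp1 (1.13), chosen after their values were seen, are known from red cells and lay above the limit.

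**Figure D2:**
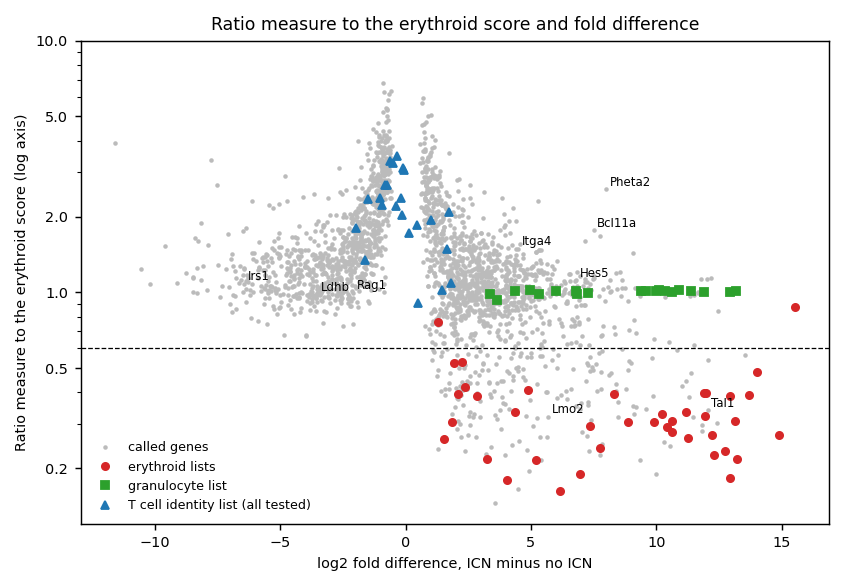
Ratio measure to the erythroid score over 12 ICN libraries (log axis) against the log2 fold difference, ICN minus no ICN, for all called genes (grey) and all 23 T cell identity genes (blue triangles). Erythroid list genes (red) lie mostly below the dashed limit of 0.6 on the right, granulocyte genes (green) near 1, and T cell identity genes between 0.91 and 3.47.

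Genes known from T-ALL were among those that followed the erythroid score. Tal1, a transcription factor of blood stem cells and erythroid cells that is also a T-ALL oncogene, was at 0.0143 to 0.14 CPM without ICN and at 223, 301, 133 and 281 CPM with ICN (log2 12.04, SE 0.63, adjusted p = 3.62e-05), with a ratio measure of 0.34. Lmo2, its partner protein and likewise a T-ALL oncogene, was at 1.05 to 2.75 CPM without ICN and at 87.0, 113, 55.0 and 111 CPM with ICN (log2 5.68, SE 0.35, adjusted p = 8.62e-05), with a ratio measure of 0.32. Both were lowest in deltaPOZ 1 on the ICN side, as were the erythroid markers. Genes chosen after their values were seen shared this pattern, namely the antioxidant enzymes Gpx1 (log2 2.71, ratio measure 0.327) and Prdx2 (2.23, 0.442), and the surface antigen Cd24a (2.13, 0.501). So did the stress response gene Ppp1r15a (3.87, 0.446), the interferon response genes Isg20 (5.63, 0.267) and Oas3 (4.61, 0.575) and the p53 target Gadd45a (2.56, 0.335). How much of each level came from leukaemia cells was not tested.

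Lyl1 and Bcl11a did not follow the erythroid, granulocyte or B cell score. No score was made for megakaryocytes, mast cells, NK cells, macrophages or dendritic cells, and their part in these levels was not tested. Lyl1, a relative of Tal1 found in immature T-ALL, was at 1.05, 0.542, 0.373 and 0.885 CPM without ICN and at 21.2, 44.3, 35.7 and 42.3 CPM with ICN (log2 5.65, SE 0.48, adjusted p = 0.00039; ratio measure 1.30). Bcl11a, a transcription factor of lymphoid progenitors, B cells and dendritic cells, was at 0.0466 to 0.187 CPM without ICN and at 15.1, 19.3, 13.97 and 23.6 CPM with ICN (log2 7.50, SE 0.57, adjusted p = 0.00023; ratio measure 1.76). All 4 libraries with ICN exceeded all 4 without for both genes, which the rule that named Lyl1 required of it. The 8 ICN libraries outside the comparison gave 24.8 to 57.8 CPM for Lyl1 and 17.1 to 38.5 CPM for Bcl11a. Of 23 genes of immature thymocytes and progenitors, 12 were higher and 1 lower (median log2 3.30), and 9 of the 12 were called whichever library was left out. Besides Tal1, Lmo2, Lyl1 and Bcl11a these 9 hold Nfe2 and Gfi1b, known from red cells and platelets, Gata2, known from mast cells, and Mef2c and Cd44. Sox4, a transcription factor of early thymocytes, was lower, from 350.1 to 664 CPM without ICN to 175 to 219 CPM with ICN (log2 -1.26, SE 0.23, adjusted p = 0.00993).

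Among 23 Notch target genes, 2 were higher and 3 lower (median log2 0.71). The share called higher was thus near the 8.8% over all genes tested. The mean log2 CPM of the list was 3.13 to 4.67 without ICN and 4.93 to 5.23 with ICN, a difference that was not tested. Hes5, a transcriptional repressor and direct Notch target, was at 0, 0.057, 0.0466 and 0.102 CPM without ICN and at 2.32, 11.8, 8.82 and 1.75 CPM with ICN (log2 6.80, SE 1.05, adjusted p = 0.00529). Nrarp, which binds the Notch complex and dampens it, was at 10.7, 14.1, 2.87 and 14.2 CPM without ICN and at 105, 358, 262 and 98.6 CPM with ICN (log2 4.31, SE 0.64, adjusted p = 0.00451). The groups did not overlap for either gene, and both were called whichever library was left out. Miz1 wt 2 and deltaPOZ 1 were the higher pair on the ICN side for both. Neither followed a blood cell score. Hes5 (ENSMUSG00000048001) lies on GRCm38 chromosome 4 at 154960923 to 154962371 and Nrarp (ENSMUSG00000078202) on chromosome 2 at 25180758 to 25183339. The 250 bases before each start, on the plus strand of chr4:154960673-154960922 and chr2:25180508-25180757 (RefSeq promoter table, GRCm38.p6), are shown because RBPJ binds DNA next to Notch targets. Capitals mark the RBPJ core TGGGAA or its reverse complement.
Hes5: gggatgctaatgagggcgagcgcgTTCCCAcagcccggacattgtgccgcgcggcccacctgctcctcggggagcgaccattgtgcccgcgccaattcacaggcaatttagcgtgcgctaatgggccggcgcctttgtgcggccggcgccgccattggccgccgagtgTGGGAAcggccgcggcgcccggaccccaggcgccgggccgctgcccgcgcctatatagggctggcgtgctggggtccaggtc
Nrarp: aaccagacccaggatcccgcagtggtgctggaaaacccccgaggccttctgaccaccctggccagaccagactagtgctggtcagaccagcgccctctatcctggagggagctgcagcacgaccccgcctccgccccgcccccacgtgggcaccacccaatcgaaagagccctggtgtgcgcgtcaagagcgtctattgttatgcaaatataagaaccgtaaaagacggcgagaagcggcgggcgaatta
The core occurred at 2 places in the Hes5 window, 226 and 82 bases before the start, and 0 times in that of Nrarp. It was found on either strand in 5 of 18 tested Notch target promoters with an entry (27.8%). The share was 20.5% of the 11088 promoters of genes tested and 21.5% of all 27025. A missing match says only that these letters are not in this window.

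Other familiar Notch targets were not called. Dtx1, a Notch-induced ubiquitin ligase, was at 12.01, 514, 218 and 258 CPM without ICN and at 497, 767, 818 and 724 CPM with ICN (log2 1.48, SE 0.82, adjusted p = 0.27). Il2ra, the alpha chain of the interleukin-2 receptor, was at 0.0751, 41.2, 17.4 and 0.425 CPM without ICN and at 148, 350.5, 308 and 59.4 CPM with ICN (log2 3.98, SE 1.51, adjusted p = 0.118). Heyl, another repressor of the Hes family, was at 1.03, 35.6, 2.26 and 1.91 CPM without ICN and at 72.5, 101, 82.1 and 49.3 CPM with ICN (log2 3.59, SE 1.05, adjusted p = 0.0542). For Il2ra and Heyl the 4 and 4 libraries did not overlap although the test did not pass. Miz1 wt 2 was the highest of the 4 mice without ICN for Dtx1, Il2ra and Heyl, and Miz1 wt 1 was lowest for all 3. Hes1, the Notch target best known in thymocytes, showed the same highest and lowest mouse, at 11.8, 76.0, 19.8 and 16.1 CPM without ICN, and lay at 54.0 to 62.0 CPM with ICN (log2 1.05, SE 0.53, adjusted p = 0.23). Myc, a major Notch target in T-ALL, was at 81.0 to 159 CPM without ICN and at 19.7, 116, 85.5 and 86.5 CPM with ICN (log2 -0.80, SE 0.49, adjusted p = 0.321).

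Notch1 itself was not called. It was at 539.5, 2092, 1910.3 and 1467 CPM without ICN and at 871, 869.9, 632 and 283 CPM with ICN (log2 -1.24, SE 0.49, adjusted p = 0.128). The 3 highest values were in mice without ICN, and counts of Notch1 may hold reads from ICN as well as from the endogenous gene. Of 29 genes for Notch receptors, ligands and machinery, 2 were higher and 1 lower (median log2 -0.04), and none of these 3 calls was kept in every fit that left out 1 library. Of the Notch targets that were lower, Tspan5, a tetraspanin that guides the Notch protease ADAM10, was at 67.6, 74.1, 63.1 and 41.6 CPM without ICN and at 11.7, 7.35, 7.38 and 13.96 CPM with ICN (log2 -2.60, SE 0.32, adjusted p = 0.00203). Fjx1, a secreted glycoprotein, was at 64.1, 60.5, 7.73 and 45.0 CPM without ICN and at 3.06 to 13.3 CPM with ICN (log2 -2.67, SE 0.51, adjusted p = 0.011), with deltaPOZ 1 inside the ICN range.

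**Figure D3:**
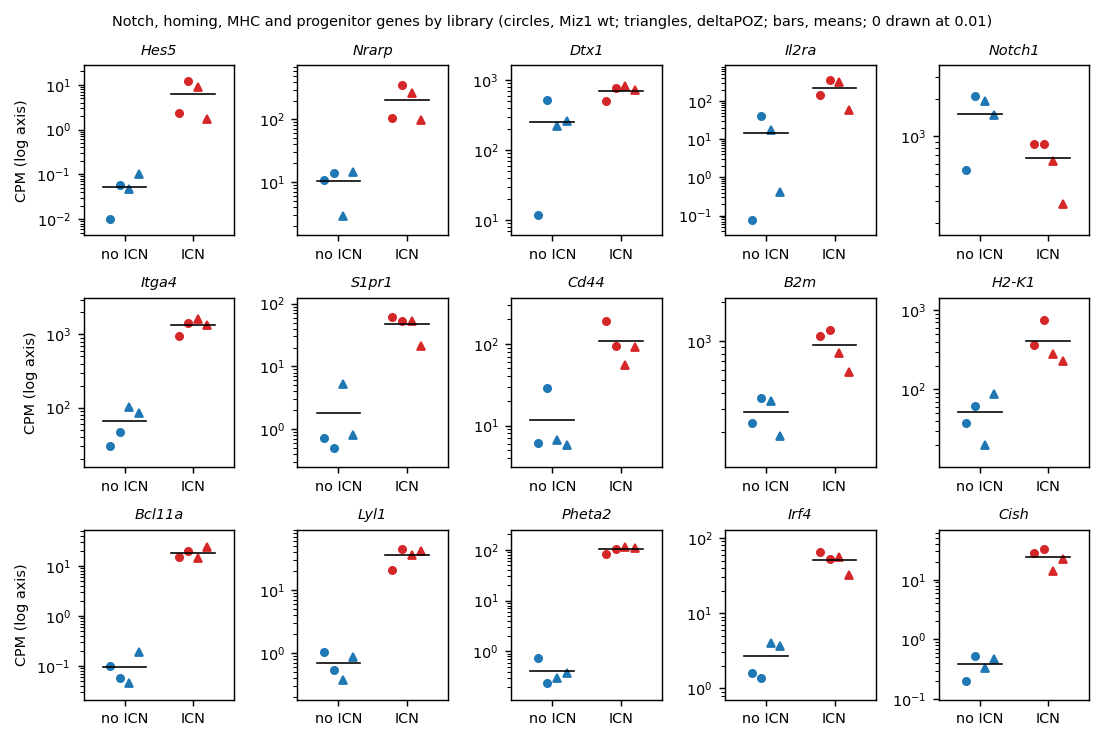
CPM (log axis) of 15 genes in each library, with no ICN on the left and ICN on the right of each panel. Hes5, Nrarp and Itga4 do not overlap between the sides, while Dtx1 (12.01 to 514 CPM) and Il2ra (0.0751 to 41.2 CPM) spread widely without ICN.

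Several receptors that guide lymphocytes through blood and tissue were higher with ICN. Of 23 homing and adhesion genes, 6 were higher and 2 lower (median log2 0.63), and 5 of the 6 were called whichever library was left out. Itga4, the alpha 4 chain of the integrins that bind VCAM1, was at 29.5, 46.5, 103 and 83.5 CPM without ICN and at 954, 1440.3, 1627 and 1335 CPM with ICN (log2 4.48, SE 0.32, adjusted p = 0.000193), and it followed no blood cell score. S1pr1, the receptor by which T cells leave thymus and lymph node, was at 0.726, 0.499, 5.26 and 0.817 CPM without ICN and at 61.2, 53.1, 52.9 and 21.3 CPM with ICN (log2 5.04, SE 0.90, adjusted p = 0.00877). Neither gene overlapped between sides, and Itga4 was highest in deltaPOZ 1, the ICN library with the least erythroid RNA. Cd44, a hyaluronan receptor of early thymocytes and activated T cells, was at 5.84 to 28.5 CPM without ICN and at 193, 94.7, 54.7 and 91.6 CPM with ICN (log2 3.30, SE 0.50, adjusted p = 0.00491). These receptors also occur on granulocytes and other blood cells, whose RNA was higher in the same libraries, and their part in these levels was not tested.

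Genes of the MHC class I chains were among those higher. Of 13 genes of MHC presentation, 6 were higher and 1 lower (median log2 1.10), and B2m, H2-K1, H2-D1 and H2-T23 were called whichever library was left out. B2m, the common light chain of class I molecules, was at 234, 364, 344 and 186 CPM without ICN and at 1100.0, 1225, 805 and 575 CPM with ICN (log2 1.67, SE 0.28, adjusted p = 0.00707). H2-K1, a class I heavy chain, was at 37.3, 62.2, 19.9 and 87.6 CPM without ICN and at 369, 749, 277 and 231 CPM with ICN (log2 2.87, SE 0.53, adjusted p = 0.0102). Neither gene overlapped between sides. Heavy chain genes are near copies of each other, so their single counts are uncertain. Of 34 interferon response genes, 10 were higher and 1 lower (median log2 1.63), and 5 of the 10 were called whichever library was left out. These 5 were Irf9, Rsad2, Isg15, Oas3 and Isg20, and the last 2 followed the erythroid score (ratio measures 0.575 and 0.267). Irf9, a subunit of the interferon-activated transcription factor, was at 20.3, 34.2, 30.1 and 40.2 CPM without ICN and at 68.3, 118, 113 and 83.0 CPM with ICN (log2 1.63, SE 0.27, adjusted p = 0.00716). Rsad2, the antiviral protein viperin, was at 1.502 to 15.7 CPM without ICN and at 376, 415, 230.0 and 474 CPM with ICN (log2 5.52, SE 0.69, adjusted p = 0.00227), with a ratio measure to the erythroid score of 0.639, close to the limit.

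Genes of interleukin-7 and JAK-STAT signalling, which relays cytokine signals in T cell precursors, were higher in part. Of 24, 5 were higher and 1 lower (median log2 0.62). Cish, a STAT5-induced inhibitor of cytokine receptors, was at 0.2, 0.528, 0.326 and 0.476 CPM without ICN and at 27.8, 33.1, 14.2 and 22.3 CPM with ICN (log2 5.92, SE 0.48, adjusted p = 0.00029; ratio measure 1.24). Pim1, a survival kinase induced by cytokines, was at 23.7 to 45.9 CPM without ICN and at 476, 245, 123 and 239 CPM with ICN (log2 2.74, SE 0.36, adjusted p = 0.00294; ratio measure 0.835), and the kinase Jak2 was at 34.9 to 72.1 CPM without ICN and at 237, 101, 98.6 and 97.5 CPM with ICN (log2 1.38, SE 0.27, adjusted p = 0.0117). All 3 were called whichever library was left out. Erythropoietin signalling in red cell precursors uses Jak2 as well, and its receptor Epor, an erythroid list member, was at 4.42 to 6.82 CPM without ICN and at 39.7, 43.7, 27.1 and 43.3 CPM with ICN (log2 2.86, SE 0.28, adjusted p = 0.000773). The overlapping gene Gm17040 on the opposite strand of Cish was higher too, at 0.267 against 0 CPM on average.

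Genes on no blood cell list were also named by the rule given with the processing, which draws on the extrapolated fit at equal erythroid score. That condition took 827 higher candidates to 241 and 628 lower ones to 513, so the named genes are not a ranking of all differences. Tmcc2, left out by it, had a log2 difference of 12.43. Of the 12 higher genes so named, Pklr, Tinagl1, Aldh1a1, St3gal6 and Lmo2 followed the erythroid score, and Gm14569, Pheta2, Il1rl1, Nlrp6, Clvs1, Lyl1 and Kcnj2 did not. Pheta2, a protein of endosome traffic, was at 0.726, 0.242, 0.303 and 0.374 CPM without ICN and at 81.6, 106, 113 and 109.6 CPM with ICN (log2 7.99, SE 0.43, adjusted p = 4.09e-05; ratio measure 2.57). Its 4 ICN values lay close together, and it was at 94.4 to 151 CPM in the 8 ICN libraries outside the comparison. Il1rl1, the receptor for interleukin-33 found on mast cells, basophils and some T cells, was at 0.0681 to 0.25 CPM without ICN and at 19.8, 20.9, 15.1 and 27.5 CPM with ICN (log2 7.28, SE 0.51, adjusted p = 0.000178; ratio measure 0.787). Gm14569 had 3 counts in all without ICN and 99.5, 109.9, 89.1 and 17.8 CPM with ICN, a pooled ratio of 5540 (95% counting interval 1900 to 26900). The potassium channel gene Kcnj2 (log2 5.48, SE 0.64, adjusted p = 0.00179) lies near its relative Kcnj16, chosen after its values were seen, which was at 0.0466 to 0.187 CPM without ICN and at 41.3, 16.8, 24.4 and 76.2 CPM with ICN (log2 8.56, SE 0.68, adjusted p = 0.000278). Irf4, a transcription factor of activated lymphocytes and plasma cells chosen after its values were seen, was at 1.58, 1.37, 4.05 and 3.66 CPM without ICN and at 65.9, 53.01, 55.9 and 32.1 CPM with ICN (log2 4.41, SE 0.46, adjusted p = 0.00101; ratio measure 1.48).

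**Figure D4:**
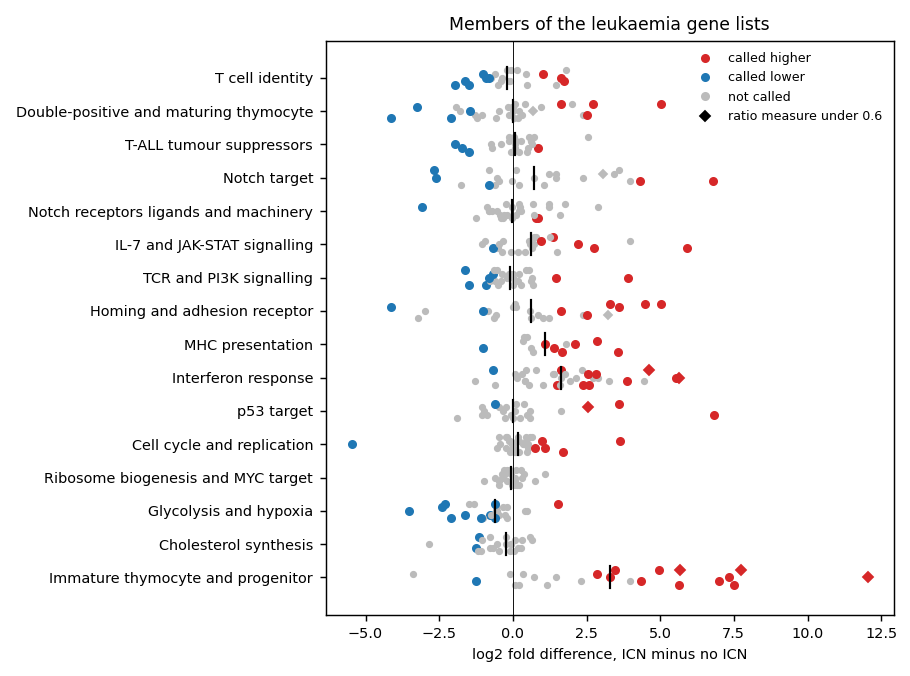
Log2 fold difference, ICN minus no ICN, of each tested member of 16 gene lists (red, called higher; blue, called lower; grey, not called; diamonds, ratio measure to a blood cell score under 0.6), with a black bar at each list's median. Ribosome biogenesis genes cluster at 0, with a median of -0.05, and glycolysis genes lie to the left, with a median of -0.60.

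Genes of thymocyte development differed in both directions. Of 30 genes of double-positive and maturing thymocytes, 4 were lower and 4 higher (median log2 0.02). Rag1, the recombinase that assembles receptor genes, was at 5816, 3815, 1782 and 5189 CPM without ICN and at 1359, 876, 762 and 858 CPM with ICN (log2 -2.11, SE 0.35, adjusted p = 0.0073). Ly6d, a surface protein of lymphoid precursors, was at 289, 297, 151 and 159 CPM without ICN and at 26.8, 15.6, 25.9 and 20.7 CPM with ICN (log2 -3.26, SE 0.30, adjusted p = 0.000551). The sides did not overlap for either gene. The higher members include S1pr1, described above, and Cd69 and Ccr7, whose calls were lost without some single libraries. Gata3, a master regulator of the T lineage, was at 37.9, 44.2, 43.6 and 59.0 CPM without ICN and at 12.4, 13.7, 9.04 and 11.9 CPM with ICN (log2 -1.97, SE 0.25, adjusted p = 0.00237). Bcl11b, which seals T lineage commitment, was at 929, 520.4, 475 and 938 CPM without ICN and at 197, 272, 279 and 273 CPM with ICN (log2 -1.49, SE 0.28, adjusted p = 0.0111). Runx1, a transcription factor of blood formation, was at 159, 551, 245 and 269 CPM without ICN and at 82.7 to 112 CPM with ICN (log2 -1.72, SE 0.35, adjusted p = 0.0145). Bcl11b, Gata3 and Runx1 are the 3 lower members among 25 T-ALL tumour suppressors, of which 1 was higher (median log2 0.09). The T cell surface genes Cd2 and Cd5 went the other way (log2 1.73 and 1.65, SE 0.33 and 0.32, adjusted p = 0.0111 and 0.0115), and Cd5 overlapped between sides. Gata3, Bcl11b, Runx1, Rag1, Ly6d, Cd2 and Cd5 were called whichever library was left out.

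Of 25 glycolysis and hypoxia genes, 9 were lower with ICN and 1 higher (median log2 -0.60), and 3 of the 9 were called whichever library was left out. Ldhb, the B subunit of lactate dehydrogenase, was at 196, 159.6, 89.3 and 64.7 CPM without ICN and at 9.46, 14.6, 7.56 and 9.64 CPM with ICN (log2 -3.52, SE 0.27, adjusted p = 0.000243). Egln3, an oxygen sensor that is itself induced by hypoxia, was at 50.6, 86.7, 67.7 and 75.7 CPM without ICN and at 29.3, 17.8, 11.3 and 11.4 CPM with ICN (log2 -2.10, SE 0.33, adjusted p = 0.00541). Bnip3, a hypoxia-induced mitophagy protein, was at 10.004 to 15.2 CPM without ICN and at 1.43 to 3.45 CPM with ICN (log2 -2.40, SE 0.37, adjusted p = 0.00541). All 3 parted the sides without overlap. Hk1, a hexokinase that red cells also use, was the higher member (log2 1.54, SE 0.24, adjusted p = 0.00548; ratio measure 0.831). Of 23 genes of cholesterol synthesis, 2 were lower and 0 higher (median log2 -0.24), with no call kept in every fit that left out 1 library.

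Of the 3 cyclins of the D family, 1 was lower, 1 higher and 1 not called. Ccnd1 was at 297, 39.1, 9.41 and 189.6 CPM without ICN and at 2.84, 2.32, 2.56 and 3.98 CPM with ICN (log2 -5.47, SE 1.03, adjusted p = 0.0109). Ccnd2 was at 0.651, 1.697, 2.45 and 3.01 CPM without ICN and at 26.9, 27.1, 13.7 and 23.05 CPM with ICN (log2 3.62, SE 0.53, adjusted p = 0.00433). Ccnd3 was at 237 to 640.0 CPM without ICN and at 239 to 320.1 CPM with ICN (log2 -0.47, SE 0.30, adjusted p = 0.351). Ccnd1 and Ccnd2 encode partners of CDK4 and CDK6 that drive cells out of the resting state, and the 4 and 4 libraries did not overlap for either of them. Without deltaPOZ 2 of the side without ICN the call on Ccnd1 was lost (log2 -4.69, edgeR adjusted p = 0.071). Of 35 cell cycle and replication genes, 5 were higher and 1 lower (median log2 0.18), and Ccnd2 alone was called whichever library was left out. Of 25 ribosome biogenesis and MYC target genes 0 were called, with a median of -0.05, and ICN Miz1 wt 1 had the lowest mean of that list.

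**Figure D5:**
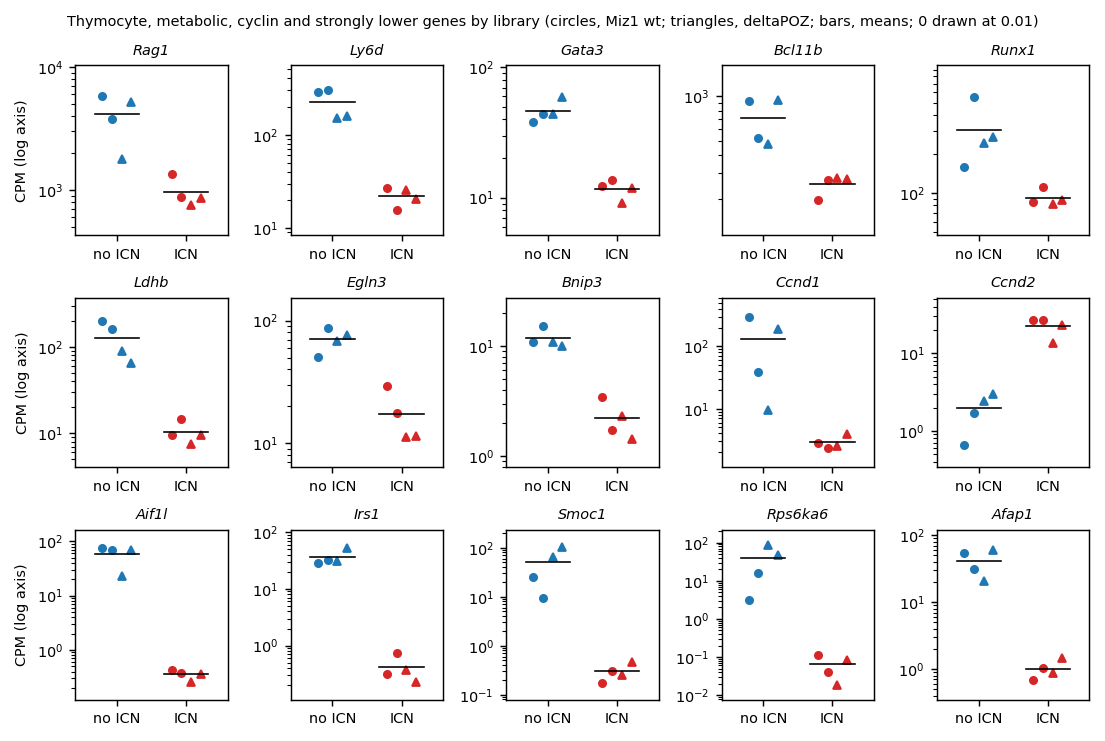
CPM (log axis) of 15 genes in each library, with no ICN on the left and ICN on the right of each panel. Ccnd1 (9.41 to 297 CPM) spreads widely without ICN and Ccnd2 lies in the opposite order, while Aif1l and Irs1 fall below 1 CPM in all 4 ICN libraries.

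Among the lower genes named by the rule, several were close to absent with ICN. Aif1l, an actin-binding protein, was at 76.0, 67.9, 22.6 and 69.5 CPM without ICN and at 0.435, 0.383, 0.258 and 0.362 CPM with ICN (log2 -7.33, SE 0.46, adjusted p = 8.62e-05). Irs1, the adaptor of the insulin and IGF1 receptors, was at 28.8, 32.1, 30.4 and 51.9 CPM without ICN and at 0.319, 0.747, 0.369 and 0.234 CPM with ICN (log2 -6.43, SE 0.50, adjusted p = 0.000247). No ICN library came near the lowest value without ICN. Smoc1, a secreted calcium-binding protein, was at 24.8, 9.47, 63.5 and 104 CPM without ICN and at 0.174 to 0.468 CPM with ICN (log2 -7.04, SE 0.61, adjusted p = 0.000449). Afap1, which links actin filaments to SRC kinase, was at 20.96 to 60.1 CPM without ICN and at 0.696 to 1.45 CPM with ICN (log2 -5.37, SE 0.48, adjusted p = 0.000498), and Mxra7 was at 15.2 to 36.7 CPM and 0.111 to 1.16 CPM (log2 -5.52, SE 0.51, adjusted p = 0.000551).

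Other strongly lower genes varied among the mice without ICN. Rps6ka6, a kinase of the RSK family on the X chromosome, was at 3.20, 15.9, 88.3 and 47.2 CPM without ICN and at 0.0185 to 0.116 CPM with ICN (log2 -8.78, SE 1.04, adjusted p = 0.00186). Sall3, a zinc finger repressor, was at 1.35, 38.4, 40.7 and 62.8 CPM without ICN and at 0 to 0.116 CPM with ICN (log2 -9.14, SE 1.37, adjusted p = 0.00468). Tdrd5, a germ cell protein, was at 132, 23.2, 37.0 and 68.2 CPM without ICN and at 0 to 0.468 CPM with ICN (log2 -8.33, SE 1.29, adjusted p = 0.00537). The kinase Mapk10, the Wnt ligand Wnt8b, Gml, Ly6k and Wscd1 were also among the 12 lower genes named by the rule, with log2 differences of -8.18 to -6.65. Ly6k and Wscd1 lost their call without 1 and 2 single libraries, and Ly6k overlaps Gm17189, which was also lower.

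Receptor segments differed between single leukaemias. Of the counts in beta chain variable segments (Trbv), the leading segment took 95.8% in Miz1 wt 1 without ICN (exact binomial 95% interval 95.6 to 96.1), where it was Trbv15, and 30.3%, 74% and 45% in the other 3. With ICN the leading segment took 48.5%, 30.2%, 30.7% and 34.2%. In Miz1 wt 1 without ICN the constant segment Trbc1 was at 0.851 CPM beside 804 CPM for Trbc2, and in the other 7 libraries Trbc1 was at 115 to 359 CPM. Delta variable segments (Trdv), which are lost when the alpha locus rearranges, summed to 1.65, 0.913, 0.722 and 0.017 CPM without ICN and to 11.3, 10.7, 22.6 and 9.26 CPM with ICN, without overlap. The sums without ICN rest on only 66, 64, 31 and 1 counts. Which cells the Trdv counts came from was not tested. Medians of whole chromosomes, as deviations from the mean of the library's own side, had a standard deviation over chromosomes of 0.14 to 0.23 (log2) without ICN and of 0.04 to 0.12 with ICN. The extremes were chromosome 16 in Miz1 wt 1 (0.52), chromosome X in deltaPOZ 1 (0.46) and chromosome 19 in deltaPOZ 1 (-0.42), all without ICN. Over all genes, Spearman correlations were 0.932 to 0.961 within the side without ICN, 0.946 to 0.98 within the ICN side and 0.855 to 0.902 between the sides.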

How the data were processed

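The authors deposited whole-number counts per Ensembl gene, 1 file per mouse, and the alignment totals in those files. Per the labels' protocols, RNA was isolated with MagMax-96 and libraries were made with TruSeq Stranded mRNA. The submitters' processing notes name TopHat2 2.0.10, SAMtools, HTSeq and DESeq with the builds mm10 and GRCm38. No label or header names the counter's strand setting or annotation release, so overlapping genes on opposite strands are uncertain. Rows that name no gene (not unique, no feature, ambiguous) were kept out of library sizes. They left 20.57% to 37.34% of alignments in genes.

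Symbols and positions of 40340 of 41214 genes came from GENCODE M21. edgeR 4.0.16 in R 4.3.3 (TMM, low-count filter, quasi-likelihood F test, Miz1 block, Benjamini-Hochberg threshold 0.05) tested 15860 genes over 8 libraries. On simulated data for this comparison (15586 genes, 50 changed by each size) it called 8%, 42%, 90% and 96% of genes changed by log2 1, 2, 4 and 6, and 0.032% of unchanged genes. Far fewer genes were changed there than were called in the data (14.9% of genes tested), so these shares need not hold for the data. DESeq2 1.42.0 and other settings served as alternatives. Genes with the 12 largest differences and the 6 lowest p-values per direction were named among called, protein-coding, genes with no overlap between the 4 and 4 libraries, on no blood cell list, that kept direction and at least 50% of their log2 size in the extrapolated fit at equal erythroid score. List members were named where their list is described. Some genes that this rule names are not reported here. The comparison and all lists were chosen with earlier results of these data known. Intervals cover counting error only.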

Additional observations from a re-analysis of the deposited data

Results flagged for a closer look

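Among 38 values examined on each side, 10 had 1 library far from the other 3 (by Dixon's test at 95%, which chance passes in about 1 in 20 groups). ICN deltaPOZ 1 was low for red cell RNA, with a mean log2 CPM of 7.57 for haemoglobin genes (others 8.66 to 8.8), 6.72 for erythroid membrane genes (7.85 to 7.97) and 1.22% of counts in erythroid genes (2.94% to 3.08%). ICN Miz1 wt 1 stood apart with 63.74% of alignments not unique (others 47.47% to 48.2%), 23972 genes detected (19975 to 20588) and a mean log2 CPM of 6.89 for ribosome biogenesis genes (7.78 to 7.89). ICN Miz1 wt 2 had the highest interferon response mean, 5.55 (others 4.54 to 4.65). Without ICN, deltaPOZ 2 was high for the Bcl2 family, 3.62 (others 2.84 to 2.97), and for endothelial genes, 0.18 (-1.01 to -0.89). Without ICN, deltaPOZ 1 was low for cholesterol synthesis, 4.58 (others 5.37 to 5.53).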

How the results depend on the processing

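Counts higher and lower with ICN were 1395 and 973 in the reported edgeR test, 2191 and 2062 without a low-count filter, 2121 and 1808 with DESeq2, 748 and 323 against a minimum fold of 2, and 2067 and 1955 over all 16 libraries. Of called genes 58.9% were higher, against 69.8% with the minimum fold, 51.5% without the filter and 51.4% over 16 libraries. Leaving out 1 library gave 840 to 1565 higher and 410 to 1367 lower, with 53.4% to 72.2% higher. Higher genes fell to 840 without ICN deltaPOZ 2. Lower genes fell to 456 without no-ICN deltaPOZ 2, 467 without ICN Miz1 wt 2, 410 without ICN deltaPOZ 1 and 412 without ICN deltaPOZ 2. For a difference between the sides that varied with Miz1 status, 369 genes were called without the filter and 82 with DESeq2. Within Miz1 wt the count was 2718 without the filter, 2119 with DESeq2 and 132 to 802 with 1 library left out, and within deltaPOZ 2661, 2024 and 108 to 531. The single libraries with the lowest counts were no-ICN Miz1 wt 1 (132) and ICN deltaPOZ 2 (108). All 2368 called genes kept their sign in every setting without a covariate in which they were tested. With the erythroid score as a covariate 0 were called and 1547 kept their sign, and with erythroid and granulocyte scores over 16 libraries 0 were called and 1496 kept it.

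With the erythroid covariate, log2 differences of 27 named genes reversed, to Alas2 -6.42, Cish -0.44, Pim1 -0.77, H2-K1 -3.48, Rsad2 -0.66, Ccnd2 -5.39, Ly6d 1.10, Sox4 0.69, Reep6 -2.71, Selenbp1 -1.10, Gvin1 -5.50, Slc14a1 -3.79, Gpx1 -1.37, Prdx2 -0.31, Cd24a -1.49, Ppp1r15a -2.17, Isg20 -3.58, Oas3 -4.70, Gadd45a -4.95, Gata2 -3.30, H2-D1 -2.72, H2-T23 -0.18, Epor -1.78, Ccr7 -0.11, Cd5 -1.17, Hk1 -2.07 and Xist -8.13. With both covariates, 28 reversed, to Csf1r -0.038, Pim1 -2.34, Rsad2 -2.25, Sox4 0.13, Reep6 -0.31, Tifa -2.53, Selenbp1 -4.84, Gvin1 -0.87, Slc14a1 -1.81, Tmem14c -1.58, Lmo2 -1.01, Gpx1 -2.77, Prdx2 -2.81, Cd24a -4.30, Ppp1r15a -3.12, Isg20 -1.32, Oas3 -0.94, Gadd45a -6.50, Nfe2 -0.68, Gata2 -0.22, Cd44 -0.42, Jak2 -0.17, Epor -2.92, Gm17040 -4.61, Rag1 0.33, Gata3 0.34, Hk1 -1.94 and Ly6k 12.86. Only 1.12% of the variance of the erythroid score lay outside the design of the 8 libraries, so the values of that fit are extrapolations. The cause of single reversals was not tested. No paired analysis was possible because replicate numbers follow accession order only. With 4 mice a side, the simulated data gave few calls at log2 1 (8%), but far fewer genes were changed there than were called in the data. Its shares therefore do not give the reach of the test in the data, where small differences may still be missed.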

Other observations

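Xist, the RNA of the inactive X chromosome, was at 0.0501, 0.185, 0.349 and 0.187 CPM in the mice without ICN and at 531, 729, 17.9 and 15.5 CPM in those with ICN, while the Y-linked gene Ddx3y was present in all 8 libraries at 27.1 to 190 CPM. In the 8 ICN libraries outside the comparison, Xist ran from 10.6 to 1310 CPM and Ddx3y from 23.7 to 208 CPM. The labels give neither the sex of the mice nor whether cells of 1 mouse were placed in another, and whether an ICN library holds RNA of more than 1 mouse was not tested.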
